A study of Homo sapiens with 18 samples.

Results

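The genes described here encode the proteins of the cytosolic ribosome. They are the protein-coding genes whose symbol is RPL or RPS followed by a number and, in some, an A or X, together with RPSA, RPLP0, RPLP1 and RPLP2. The rule found 77 of the 58735 genes in the count table, 46 for the large and 31 for the small subunit, and all 77 passed the filter on low counts. It leaves out FAU, in which a ribosomal protein is made as a fusion with a ubiquitin-like protein.

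RNA was sequenced from PODO/TERT256, a line of human podocytes immortalised with telomerase, and every group consisted of this line on 3D hemispheres. The 6 groups of 3 libraries were fractal topography with THP-1-derived macrophages, smooth topography with THP-1-derived macrophages, fractal topography with the cytokines TNF-α and IL-6, smooth topography with these cytokines, fractal topography in the control condition and smooth topography in the control condition. THP-1 is a human leukaemia line with monocyte features. The labels give no dose or time and no step that separates macrophages from podocytes before lysis. Nor do they state that replicates were grown apart, and the p-values then cover only the spread between these samples, which may be technical. The line has limits as a podocyte: NPHS1 had 6 counts and WT1 had 37 counts over all 18 libraries, whereas SYNPO averaged 66.6 CPM and ACTN4 1229 CPM in smooth controls.

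Ribosomal proteins are made in matched amounts and assembled with ribosomal RNA in the nucleolus, and podocytes, like other cells, spend a large part of their resources on this. Most of these genes give mRNAs that start with a C followed by a run of pyrimidines, the 5′ terminal oligopyrimidine (TOP) motif. Through this motif mTORC1 and the RNA-binding protein LARP1 set how strongly the mRNAs are translated and how stable they are, and MYC raises transcription of many of them. The counts below measure mRNA, not translation.

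Of the 5 patterns searched in the RefSeq promoter table (GRCh38.p14), which held 62 of the 77 members, the TOP start was the one that most members hold. A start of C followed by at least 4 pyrimidines (C or T), read on the gene's strand, stood at the annotated start of 46 members, which is 74.2% of the 62, against 5.14% of the 27305 genes in the table. The 30-base windows below are shown because they belong to the member that fell most (RPSA), to others that fell with THP-1 (RPL12, RPS29, RPS3A), and to members that varied little over the groups (RPLP1, RPL28). Each has 10 bases before the start and 20 from it, 5′ to 3′, and capitals mark the C and its pyrimidine run.
RPSA, chr3:39406710-39406739, plus strand: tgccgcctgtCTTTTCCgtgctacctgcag
RPL12, chr9:127451387-127451416, minus strand: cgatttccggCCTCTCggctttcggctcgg
RPS29, chr14:49598691-49598720, minus strand: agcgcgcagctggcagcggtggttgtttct
RPS3A, chr4:151099618-151099647, plus strand: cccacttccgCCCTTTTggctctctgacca
RPLP1, chr15:69452808-69452837, plus strand: ggcgcgagagCCCCTTTCCTCagctgccgc
RPL28, chr19:55385922-55385951, plus strand: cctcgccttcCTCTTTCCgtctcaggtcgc
The run was 7 bases long in RPSA, 6 in RPL12, 7 in RPS3A, 11 in RPLP1 and 8 in RPL28, and the annotated start of RPS29 has none. Over the 46 members with a run its length went from 5 to 19 bases, with a median of 8. In the 250 bases before the start, CGGAAG on either strand occurred in 61.3% of the members, against 19.4% of all genes in the table. TATAAA occurred in 8.06% of the members, against 13.0% of all genes, CACGTG in 4.84%, against 7.73%, and ATGGCG in 17.7%, against 7.77%. A match to these letters is a description of the sequence only.

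The family's share of all counts was on average lowest with THP-1, intermediate with cytokines and highest in controls, on either topography. It was 2.64, 2.57 and 3.11% in fractal THP-1 replicates 1 to 3 and 2.35, 2.54 and 2.64% in smooth THP-1. It was 3.3, 3.48 and 3.46% in fractal cytokines and 2.98, 3.31 and 2.84% in smooth cytokines, against 3.57, 3.6 and 3.64% in fractal controls and 3.58, 3.72 and 3.68% in smooth controls. Every THP-1 library lay below every control, and no sum over the members was tested. In bulk RNA fewer cells of a type and less RNA per cell cannot be told apart. Both subunits moved alike: the ratio of large to small subunit counts ran from 1.68 to 1.80 in every library except fractal THP-1 replicate 3, where it was 1.48. The gene of the matrix protein fibronectin, FN1, took 14.4 to 18.5% of the counts in fractal THP-1 and 12.4 to 14.1% in smooth THP-1, against 8.26 to 8.33% in fractal controls and 9.84 to 10.1% in smooth controls. With FN1 and the mitochondrially encoded genes left out, the mean family share was 3.46% in fractal THP-1 and 3.04% in smooth THP-1, against 4.11% in fractal controls and 4.27% in smooth controls.

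**Figure D1:**
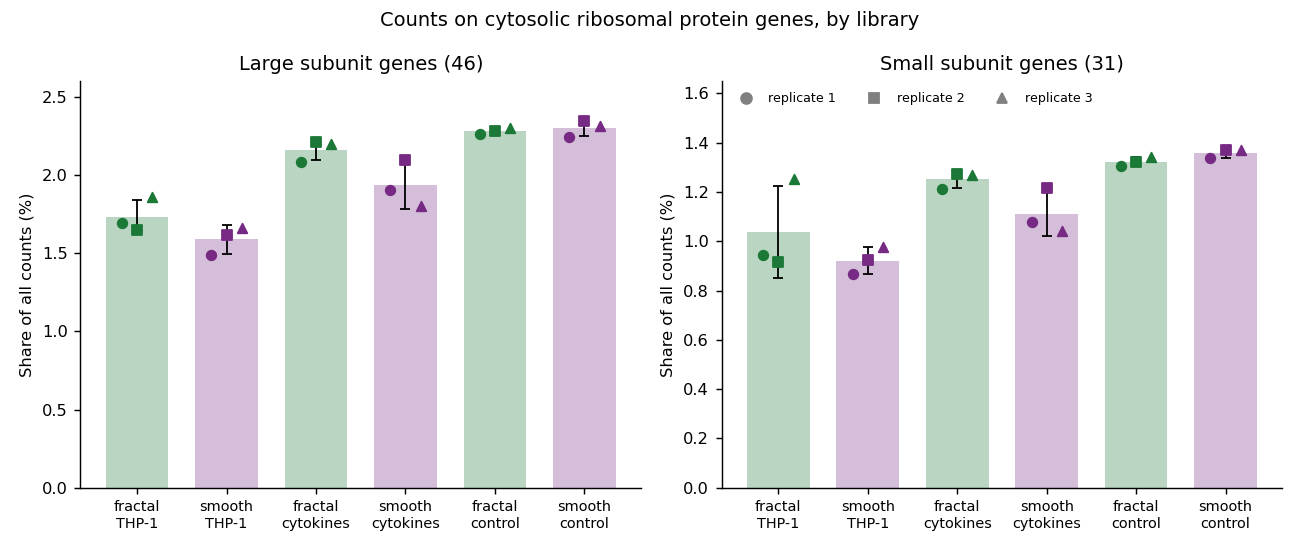
Share of all counts (%, vertical axis from 0) on the 46 large and 31 small subunit genes in each library; bars are means of 3 libraries, error bars SD, and symbols mark replicates 1 to 3. Every THP-1 library is below every control in both panels, and fractal THP-1 replicate 3 (triangle) is the highest of its group.

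A pair of libraries stood apart within their groups. Fractal THP-1 replicate 3 had 11488204 counts, the fewest in a range up to 21264180, counts on 17934 genes, and a mitochondrially encoded share of 0.847%. In it the members were spread in both directions: set against the mean of replicates 1 and 2, their level ran from 0.0775 (RPS10, which had 1 count) to 2.25 (RPS27A), with a median of 0.987, and was above 1.2 in 28 members and below 1/1.2 in 24. Among the highest were RPL13A, RPS19 and RPS14, and among the lowest RPS27, RPL29, RPL27 and RPL39. Smooth cytokines replicate 2, with 8.09% mitochondrially encoded counts, was the highest of its group in 73 of 77 members, at a median of 1.14 times the other libraries. Counts of members called are given with and without these libraries in most comparisons. So are the values of named members whose call or size turned on them. Counts by TOP start include these libraries, as do most counts of other gene lists.

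**Figure D2:**
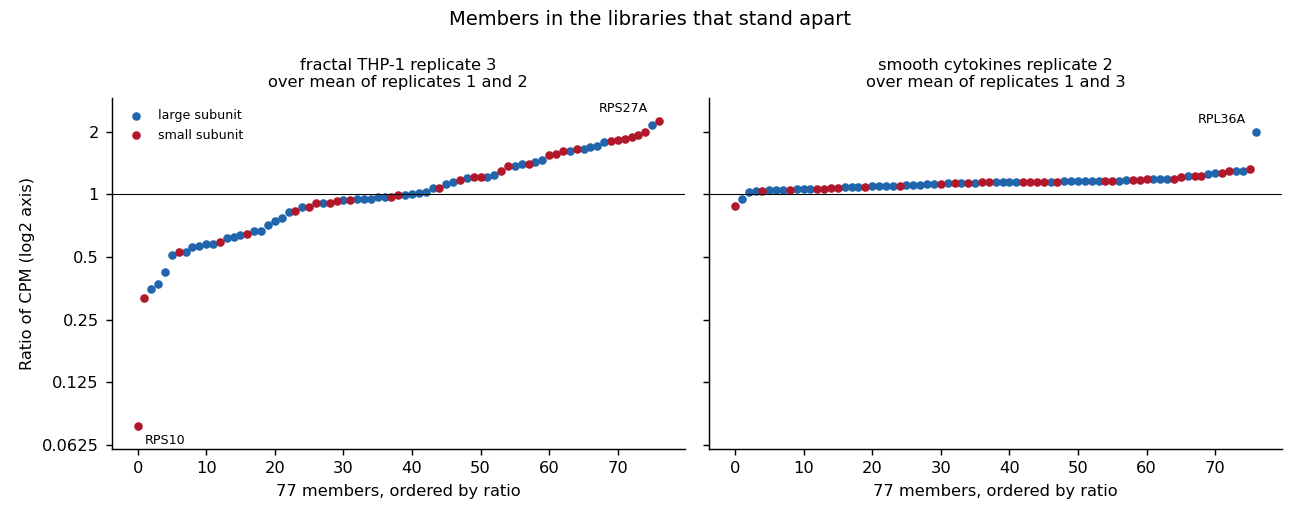
Ratio of CPM (log2 axis) of each of the 77 members in fractal THP-1 replicate 3 to the mean of replicates 1 and 2 (left) and in smooth cytokines replicate 2 to the mean of replicates 1 and 3 (right). The left ratios run from 0.0775 to 2.25 around a median of 0.987, and nearly all of the right ratios lie above 1, with a median of 1.14.

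Members differed widely in level. Lengths are those of the principal transcript, the longest where a gene has several. Per length, the highest in smooth controls were RPS2, a small subunit protein near the entry of the mRNA channel, at 1328 CPM per kb, RPL3, which lies near the peptidyl transferase centre, at 1301 CPM per kb, RPS18 at 1242 CPM per kb and RPL12, of the stalk base, at 1115 CPM per kb. The median member had 387.5 CPM per kb. The length taken was 7686 bases in RPL37 and 4796 bases in RPL28, so levels per length depend on the transcript taken. Among the lowest were RPS10 at 1.40, RPL17 at 9.52 and RPL36A at 9.83 CPM per kb. Each of these 3 overlaps another protein-coding gene on its own strand (RPS10-NUDT3, RPL17-C18orf32 and RPL36A-HNRNPH2), and how reads shared by overlapping genes were counted is not given in the sources used here, so these levels are uncertain. Of all members, 9 overlap a coding gene on the same strand and 36 a gene on the other strand, which the unstranded libraries cannot separate. The annotation also names 1587 ribosomal protein pseudogenes, which took 0.0902 to 0.142% of the counts of a library.

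**Figure D3:**
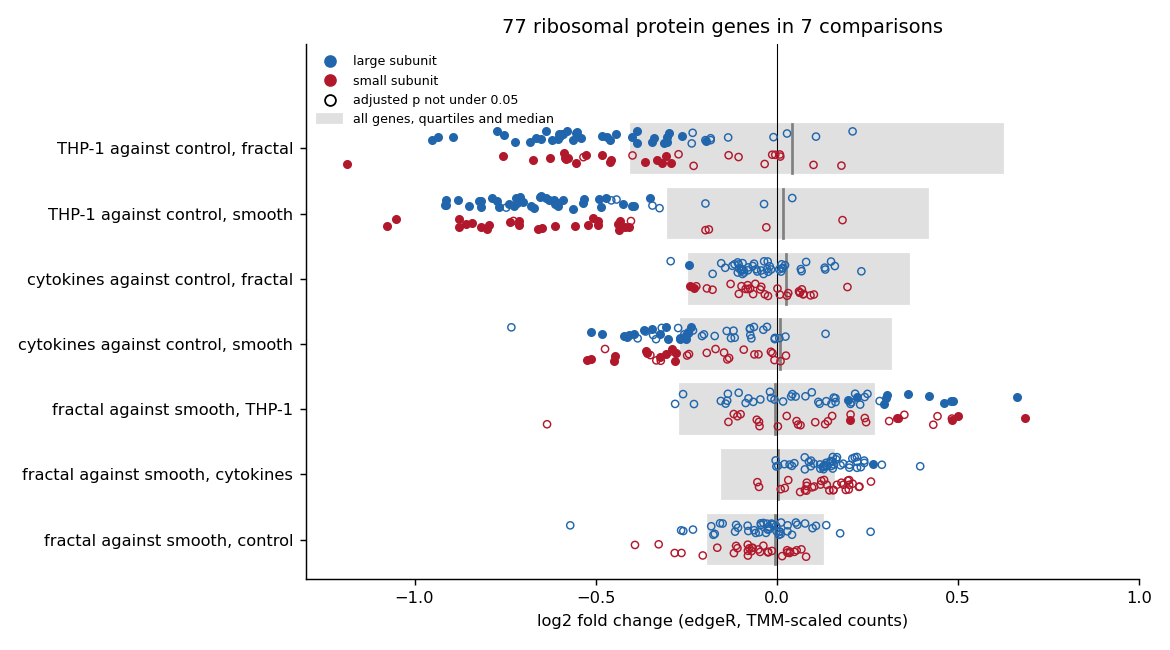
log2 fold change (horizontal axis) of the 77 members in 7 comparisons of 2 groups; blue points are large and red points small subunit genes, filled where the adjusted p is under 0.05, and the grey boxes show the quartiles and median of all 16129 genes tested. With THP-1 the member medians lie at -0.44 on fractal and -0.63 on smooth topography, whereas the grey medians lie at 0.04 and 0.02.

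With THP-1 on smooth topography 63 of 77 members fell and 0 rose (edgeR's quasi-likelihood test, Benjamini-Hochberg adjusted p under 0.05), and their median log2 fold change was -0.63. Of all 16129 genes tested, 17.3% rose and 17.7% fell at the same threshold, and the median over all genes was 0.02. The fall covered both subunits, with 38 of 46 large subunit genes (median -0.63) and 25 of 31 small subunit genes (median -0.61). The libraries of 72 members lay wholly below the controls, against 27.3% of all genes. Of the 63 calls, 55 were kept whichever of the 6 libraries was left out, and all 63 were kept without both libraries that stand apart.

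RPSA, a small subunit protein that is also known as the laminin receptor precursor, fell most. It had 473, 495 and 514 CPM in smooth THP-1 replicates 1 to 3, against 1010, 1065 and 1049 CPM in smooth controls. The groups are far apart, and the log2 fold change was -1.08 ± 0.08 (SE, adjusted p = 9.08e-11, edgeR). RPS29, a short zinc-binding protein of the small subunit, had 45.8, 49.5 and 67.3 CPM in smooth THP-1, against 106, 108 and 122 CPM in smooth controls, a log2 fold change of -1.05 ± 0.14 (adjusted p = 5.14e-06, edgeR). RPL12, of the stalk base, had 358, 367 and 399 CPM in smooth THP-1, against 687, 708 and 722 CPM in smooth controls, a log2 fold change of -0.91 ± 0.07 (adjusted p = 3.98e-10, edgeR). The smooth THP-1 libraries of each were all below the controls, and those of RPL9, a large subunit protein with 226, 240.4 and 247 CPM, against 435, 463 and 446 CPM in smooth controls, were too. The log2 fold change of RPL9 was -0.91 ± 0.08 (adjusted p = 8.45e-10, edgeR).

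The stalk proteins, which recruit the translation factors, did not move by equal amounts. RPLP0, which anchors the stalk, had 877, 904 and 879 CPM in smooth THP-1, against 1419, 1501 and 1428 CPM in smooth controls (-0.71 ± 0.07, adjusted p = 1.32e-08, edgeR). RPLP2 had 140.4, 154 and 149 CPM in smooth THP-1, against 198, 204 and 222 CPM in smooth controls (-0.49 ± 0.08, adjusted p = 2.38e-05, edgeR). RPLP1 had 355, 390 and 389 CPM in smooth THP-1, against 427, 444 and 429.7 CPM in smooth controls (-0.20 ± 0.08, adjusted p = 0.0635, edgeR), which did not pass the threshold although its libraries do not overlap either. The value of RPLP1 without both libraries that stand apart was -0.20 ± 0.05 (adjusted p = 0.0016, edgeR). RPLP1 also varied least of all members, with group means within 0.275 log2 units, where the median member spanned 0.674 and RPSA 1.21. Whether RPLP1 and RPLP0 differ in their change was not tested.

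Members with roles outside the ribosome were part of the fall on smooth topography. RPL5 and RPL11, which hold back MDM2 when ribosome assembly is disturbed, had log2 fold changes of -0.77 ± 0.08 and -0.64 ± 0.07 in smooth THP-1 against smooth control (adjusted p = 5.5e-08 and 1.55e-07, edgeR). RPS6, the substrate of the S6 kinases, had 516, 481 and 514 CPM in smooth THP-1, against 796, 785 and 805 CPM in smooth controls (-0.66 ± 0.15, adjusted p = 0.00203, edgeR). RPS27A, which is made as a fusion with ubiquitin, changed by -0.74 ± 0.23 (adjusted p = 0.0206, edgeR), and RPS19, the gene most often mutated in Diamond-Blackfan anaemia, by -0.51 ± 0.19 (adjusted p = 0.0457, edgeR). RPL10, which joins late in subunit maturation, RPS4X, and RPL22, an RNA-binding member, fell by 0.60, 0.49 and 0.53 on the log2 scale. RPL41 and RPL39, which are among the shortest proteins of the large subunit, changed by -0.59 ± 0.13 and -0.82 ± 0.22 (adjusted p = 0.00101 and 0.00943, edgeR). RPS27 was among the 14 members that did not pass (-0.73 ± 0.31, adjusted p = 0.0887, edgeR, and -0.73 ± 0.13, adjusted p = 0.000408, without both libraries), as were RPL17 and RPS10, whose levels are uncertain.

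With THP-1 on fractal topography 54 of 77 members fell and 0 rose, with a median of -0.44. Of all genes tested 25% rose and 25.5% fell, with a median of 0.04 over all genes. The count was 36 of 46 in the large subunit (median -0.46) and 18 of 31 in the small subunit (median -0.36). The libraries of 50 members lay wholly below the controls, against 28.3% of all genes. When both libraries that stand apart were left out, 68 members fell, against 27.7% of all genes then tested, and 53 of the 54 calls were among them.

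RPSA again fell most, to 436, 404 and 509.5 CPM in fractal THP-1, against 1014, 1029 and 1029 CPM in fractal controls (-1.19 ± 0.08, adjusted p = 5.66e-12, edgeR). RPL29 had 306, 314 and 109 CPM in fractal THP-1, against 424, 506 and 480.3 CPM in fractal controls (-0.95 ± 0.28, adjusted p = 0.0119, edgeR). RPL27 had 213, 193 and 75.4 CPM in fractal THP-1, against 293, 303 and 328 CPM in fractal controls (-0.93 ± 0.25, adjusted p = 0.0073, edgeR). RPL29 and RPL27 were lowest by far in replicate 3, and without both libraries that stand apart their log2 fold changes were -0.61 ± 0.08 and -0.61 ± 0.07. RPL32 likewise had 266, 258 and 134 CPM in fractal THP-1, against 400, 406 and 419 CPM in fractal controls (-0.89 ± 0.16, and -0.65 ± 0.06 without both libraries). RPL13A, which also acts in a translational silencing complex of interferon-treated myeloid cells, had 895, 863 and 1900 CPM in fractal THP-1, against 1063, 1035 and 1066 CPM in fractal controls. Replicate 3 lay above the controls and the other replicates below them, so the log2 fold change of 0.21 ± 0.20 (adjusted p = 0.418, edgeR) turned to -0.27 ± 0.05 without both libraries (adjusted p = 4.35e-05, edgeR). Of the stalk proteins, RPLP0 changed by -0.72 ± 0.07, RPLP2 by -0.39 ± 0.08 and RPLP1 by -0.20 ± 0.08 (adjusted p = 3.5e-09, 0.000219 and 0.0483, edgeR), and RPLP1 by -0.30 ± 0.06 without both libraries. Of the other members with known roles, RPL5, RPL10, RPL11, RPL22, RPL39 and RPS4X also fell. RPS6, RPS27A, RPS19 and RPL41 did not pass (-0.11 ± 0.15, -0.23 ± 0.23, 0.10 ± 0.19 and 0.03 ± 0.13). Without fractal THP-1 replicate 3 alone these passed as lower, at -0.45 ± 0.07, -0.73 ± 0.07, -0.32 ± 0.07 and -0.25 ± 0.07. RPS27 did not pass with or without that library.

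**Figure D4:**
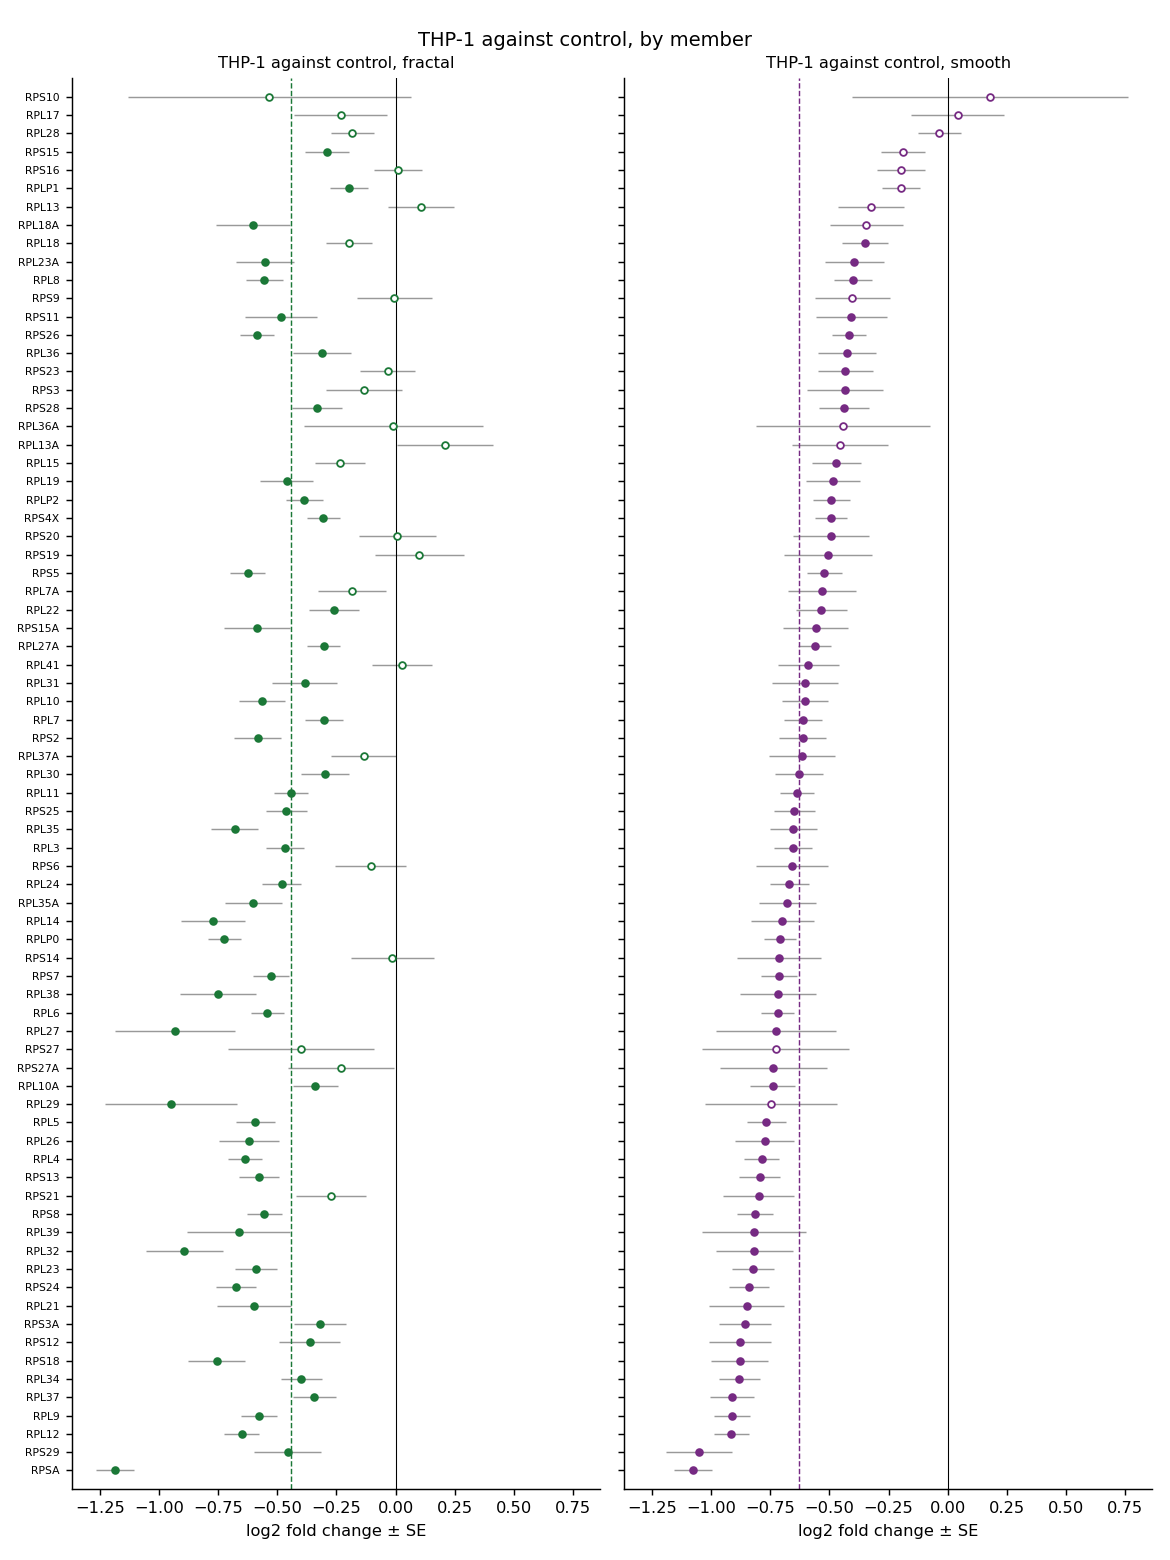
log2 fold change with SE of 76 of the 77 members, THP-1 against control, on fractal (left) and smooth (right) topography, in the order of the smooth values; filled points have an adjusted p under 0.05 and dashed lines are the medians over the 77 members, -0.44 and -0.63. RPSA is lowest in both panels, and 63 points are filled on smooth and 54 on fractal topography.

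Markers of monocytes and macrophages moved with the same groups. The summed level of 20 such genes was 21.4 to 22.6 CPM in fractal THP-1 and 36.3 to 41.0 CPM in smooth THP-1, against 1.93 to 3.32 CPM in fractal controls and 2.19 to 2.76 CPM in smooth controls. Of the 20, 16 had at least 1 count in fractal THP-1 and 18 in smooth THP-1, against 11 in fractal and 9 in smooth controls. Some of these were near the floor: CD68 and LYZ had 5 counts each and AIF1 had 7 over all 18 libraries. C1QB and MRC1 had no counts in either THP-1 group, and LAPTM5 was the most abundant marker in smooth THP-1, at 13.97 CPM. All 9 markers that could be tested rose with THP-1 on both topographies. Some of these, such as TYROBP, had counts in THP-1 libraries only and passed the filter on low counts through them. A rise was then the only change they could show, so the count of 9 cannot be set against the share of all genes that rose. It describes where the markers were found. The part of macrophage RNA in the fall of the family was not tested. Of 10 short-lived and stress mRNAs, listed as possible signs of RNA quality, 1 rose and 2 fell with THP-1 on fractal and 3 rose and 5 fell on smooth topography. In these genes an effect of the treatment and one of RNA quality cannot be told apart. Of 8 podocyte markers tested, 3 rose and 4 fell on fractal and 3 rose and 3 fell on smooth topography.

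With cytokines on smooth topography 28 of 77 members fell and 0 rose, with a median log2 fold change of -0.25. Of all genes tested 13.2% rose and 12.4% fell, and the median over all genes was 0.0074. The calls were 17 of 46 in the large and 11 of 31 in the small subunit. The libraries of 48 members lay wholly below the controls, against 21.4% of all genes. With the same pair left out, 55 members fell, all 28 among them, against 16.9% of all genes then tested. Leaving out smooth cytokines replicate 3 or smooth control replicate 3 left 18 calls each.

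RPSA had 708, 763 and 701 CPM in smooth cytokines, against 1010, 1065 and 1049 CPM in smooth controls (-0.52 ± 0.08, adjusted p = 1.35e-05, edgeR). RPL12 had 476, 544 and 463 CPM in smooth cytokines, against 687, 708 and 722 CPM in smooth controls (-0.51 ± 0.07, adjusted p = 6.08e-06, edgeR). RPS24 had 325, 385 and 312 CPM in smooth cytokines, against 469, 500 and 489 CPM in smooth controls (-0.51 ± 0.08, adjusted p = 4.26e-05, edgeR). In all 3 members replicate 2 was the highest of the cytokine libraries and still lay below every control. RPL26, of the large subunit, had 22.3, 27 and 21.8 CPM in smooth cytokines, against 31.8, 34.3 and 33.3 CPM in smooth controls (-0.48 ± 0.12, adjusted p = 0.0044, edgeR). RPL28, of the same subunit, stood farthest above the family median, with 366, 439 and 389.5 CPM in smooth cytokines, against 355, 365 and 369 CPM in smooth controls (0.13 ± 0.09, adjusted p = 0.314, edgeR). RPL5, RPL11 and RPLP0 fell by 0.25, 0.27 and 0.24 on the log2 scale, whereas RPLP1, RPLP2, RPS6, RPS4X, RPL10 and RPS19 did not pass the test, with log2 fold changes from -0.33 to -0.007. Of these, RPLP1, RPS6 and RPS19 passed without both libraries, at -0.21 ± 0.06, -0.39 ± 0.06 and -0.35 ± 0.06 (adjusted p = 0.00361, 2.74e-07 and 6.93e-06, edgeR).

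With cytokines on fractal topography 3 of 77 members fell and 0 rose, with a median of -0.05, where 13.0% of all genes rose and 12.9% fell. The 3 were RPL4, RPSA and RPS7. RPL4 had 1441, 1402 and 1415 CPM in fractal cytokines, against 1721, 1688 and 1625 CPM in fractal controls (-0.24 ± 0.07, adjusted p = 0.0158, edgeR). RPSA had 864, 898 and 838 CPM in fractal cytokines, against 1014, 1029 and 1029 CPM in fractal controls (-0.24 ± 0.08, adjusted p = 0.0246, edgeR). RPS7 had 282, 282 and 304 CPM in fractal cytokines, against 337, 339 and 341 CPM in fractal controls (-0.23 ± 0.08, adjusted p = 0.0282, edgeR). In each of the 3 the cytokine libraries lay wholly below the controls, as they did in 16 members, against 23.4% of all genes, and in 6 members they lay wholly above, again against 23.4% of all genes. Leaving out fractal control replicate 1 or 2 left 0 calls, fractal control replicate 3 left 1 and fractal cytokines replicate 3 left 5. Without both libraries that stand apart 3 members rose and 10 fell, against 17.6% and 18.1% of all genes then tested.

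Fractal and smooth topography were compared within each condition. In the control condition 0 of 77 members passed (edgeR and DESeq2), where 5 had an unadjusted p under 0.05 and 1.77% of all genes passed, and the member median was -0.04, against a median of -0.0067 over all genes. The fractal libraries lay wholly above the smooth ones in 5 members and wholly below in 26, against 15.2% and 15.0% of all genes. RPS29 was among those below, with 80.5, 83.8 and 92.6 CPM in fractal controls, against 106, 108 and 122 CPM in smooth controls (-0.39 ± 0.14, adjusted p = 0.202, edgeR). In a fit of the control libraries alone, which changes the genes tested, the scaling and the estimate of the spread together, 4 members passed as higher and 22 as lower, against 10% and 9.41% of all genes then tested. Leaving out both libraries that stand apart, 5 members passed as lower, against 3.69% of all genes then tested.

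With cytokines 1 of 77 members, RPL12, was higher on fractal topography and 0 were lower, where 1.72% of all genes were higher and 2.74% lower, and the member median was 0.14, against 0.0023 over all genes. RPL12 had 578, 610.4 and 594 CPM in fractal cytokines, against 476, 544 and 463 CPM in smooth cytokines (0.27 ± 0.07, adjusted p = 0.0326, edgeR). The fractal libraries were all above the smooth ones in RPL12, as they were in 25 members, against 8.43% of all genes, and they were wholly below in 0 members, against 9.17% of all genes. RPSA had 864, 898 and 838 CPM in fractal cytokines, against 708, 763 and 701 CPM in smooth cytokines, and did not pass (0.26 ± 0.08, adjusted p = 0.0606, edgeR), whereas the value without both libraries was 0.30 ± 0.06 (adjusted p = 0.000123, edgeR). Without both libraries that stand apart 44 members passed as higher and 0 as lower, where 4.24% of all genes then tested were higher and 5.18% lower, with a member median of 0.21. Leaving out smooth cytokines replicate 2 alone gave 4 calls, and leaving out any other library of these groups gave 0.

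With THP-1 16 of 77 members were higher on fractal topography and 0 lower, where 8.25% of all genes were higher and 11.7% lower, and the member median was 0.14, against -0.0045 over all genes. The fractal libraries lay wholly above the smooth ones in 19 members and wholly below in 0, against 13.8% and 17.3% of all genes. The largest differences were in RPS14 and RPL13A. RPS14, whose loss impairs red cell formation, had 375, 352 and 703 CPM in fractal THP-1, against 289.7, 274 and 325 CPM in smooth THP-1 (0.69 ± 0.18, adjusted p = 0.011, edgeR). RPL13A had 895, 863 and 1900 CPM in fractal THP-1, against 772, 758 and 779 CPM in smooth THP-1 (0.66 ± 0.20, adjusted p = 0.031, edgeR). In both the fractal libraries were all above the smooth ones and replicate 3 was by far the highest, and without both libraries that stand apart the log2 fold changes were 0.29 ± 0.06 and 0.19 ± 0.05 (adjusted p = 0.000226 and 0.00665, edgeR).

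RPS3A, at the mRNA exit of the small subunit, had 418, 400 and 630.4 CPM in fractal THP-1, against 333, 348 and 342 CPM in smooth THP-1 (0.50 ± 0.11, and 0.26 ± 0.06 without both libraries). RPL7A had 636, 627 and 1128 CPM in fractal THP-1, against 546, 582 and 578 CPM in smooth THP-1 (0.49 ± 0.14, adjusted p = 0.0213, edgeR). Its value was 0.15 ± 0.06 without fractal THP-1 replicate 3 alone, which did not pass (adjusted p = 0.0685, edgeR), and 0.15 ± 0.06 without both libraries (adjusted p = 0.039, edgeR). All fractal libraries of both members were above the smooth ones. RPS6, RPL41 and RPS4X were also higher, by 0.48, 0.46 and 0.20 on the log2 scale. Without both libraries RPS6 was at 0.14 ± 0.06 and did not pass (adjusted p = 0.0617, edgeR), RPL41 was at 0.19 ± 0.06 (adjusted p = 0.0215, edgeR) and RPS4X at 0.21 ± 0.06. RPSA went the other way without passing (-0.13 ± 0.08, adjusted p = 0.259, edgeR), and without both libraries that stand apart it was the 1 member that passed as lower (-0.23 ± 0.06, adjusted p = 0.00129, edgeR), while 29 passed as higher, where 15.3% of all genes then tested were lower and 10.2% higher. Leaving out smooth THP-1 replicate 1 or 2 left 3 calls each and leaving out replicate 3 left 9. RPS3A and RPL7, the last chosen after its values were seen, were called in every such run, and in a fit of both THP-1 groups alone 0 members passed.

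**Figure D5:**
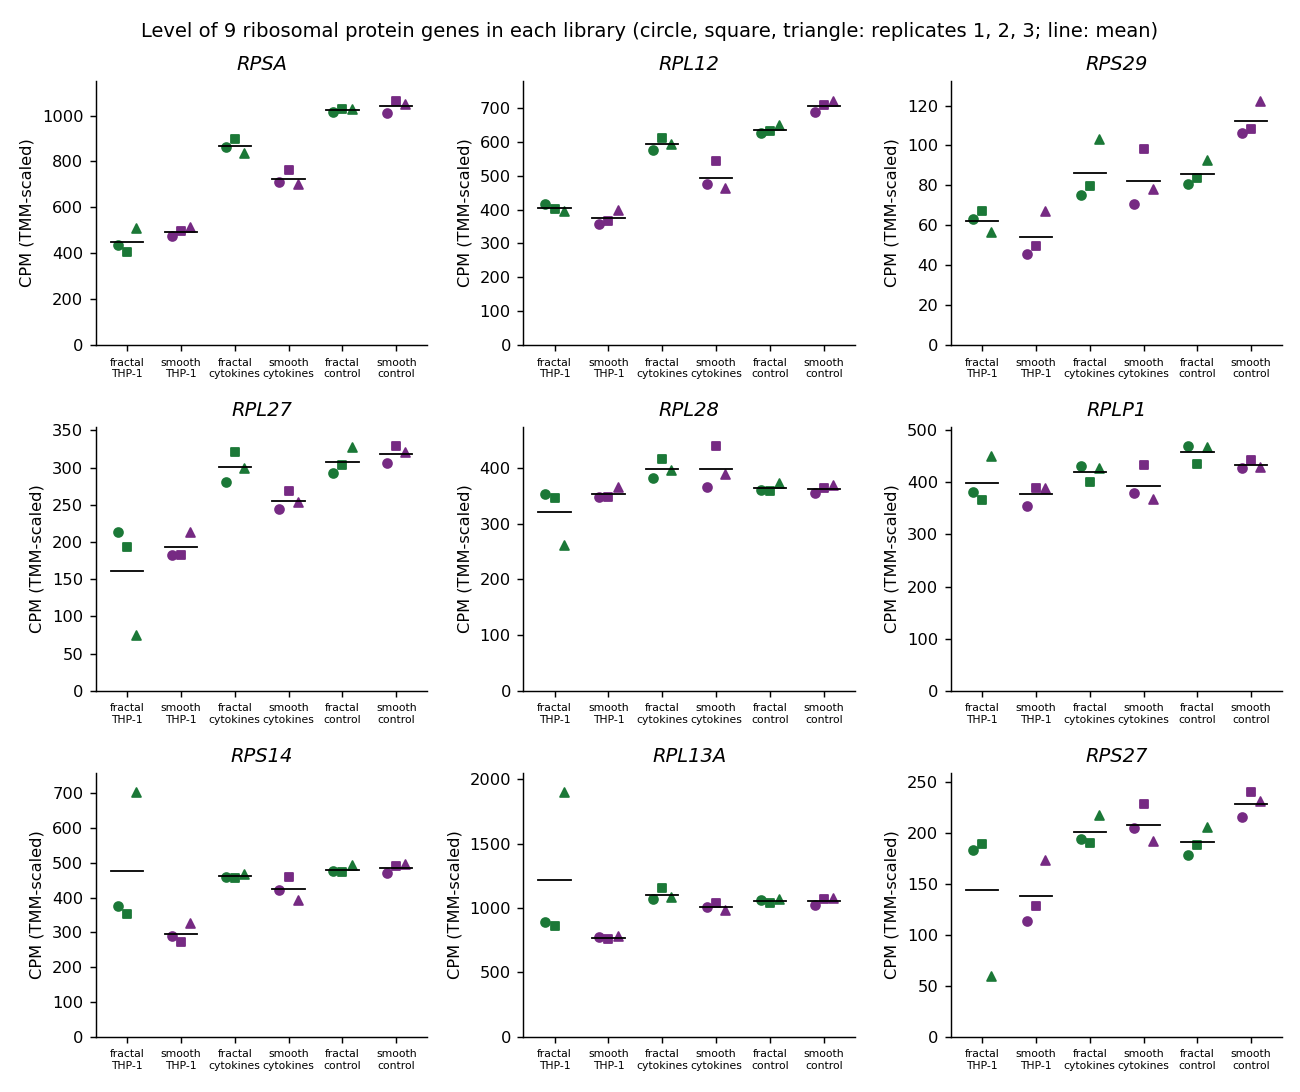
CPM (vertical axes from 0) of 9 members in each library, with fractal (green) and smooth (purple) groups side by side, symbols for replicates 1 to 3 and a line at the mean of 3. RPSA and RPL12 are low in both THP-1 groups, RPL28 and RPLP1 vary little, and fractal THP-1 replicate 3 stands far from its companions in RPL27, RPS14, RPL13A and RPS27.

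The interaction asks whether a treatment's effect on fractal topography differed from that on smooth. With THP-1 it passed in 5 of 77 members, all with a positive value, where 5.35% of all genes were positive and 7.88% negative, and the member median was 0.19, against 0.0033 over all genes. The 5 were RPL41 (0.62 ± 0.18, and 0.34 ± 0.08 without both libraries), RPL37 (0.57 ± 0.13), RPS3A (0.54 ± 0.16, and 0.30 ± 0.08 without both), RPL34 (0.48 ± 0.12) and RPL9 (0.33 ± 0.11), the last named after its values were seen. RPL37 had 222, 236 and 230.3 CPM in fractal THP-1 and 172, 182 and 203 CPM in smooth THP-1, against 284, 283 and 306 CPM in fractal controls and 332, 359 and 357 CPM in smooth controls. Its THP-1 libraries lay below the controls on both topographies, and its smooth controls lay above its fractal controls. RPL34 had 166, 158 and 155 CPM in fractal THP-1 and 115, 128 and 146 CPM in smooth THP-1, against 209, 206 and 216 CPM in fractal controls and 235, 241 and 240.2 CPM in smooth controls, and the same order held. RPSA had an interaction of -0.11 ± 0.11 (adjusted p = 0.588, edgeR), and of -0.21 ± 0.08 without both libraries (adjusted p = 0.038, edgeR). Leaving both libraries that stand apart out, 23 members passed with a positive and 1 with a negative value, against 8.81% and 13.2% of all genes then tested. The fractal and smooth effects share no library.

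With cytokines the interaction passed in RPL12 alone, against 1.28% of all genes that were positive (0.42 ± 0.10, adjusted p = 0.0248, edgeR), and the member median was 0.18, against 0.0066 over all genes. Its value without both libraries that stand apart was 0.49 ± 0.08, and 35 members then passed, all positive, against 4.16% of all genes. Leaving out smooth cytokines replicate 2 gave 3 calls, and leaving out any other of the 12 libraries gave 0.

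Members with and without the TOP start at the annotated base were both among those that fell. The class without it depends on the exact base annotated. In RPS28, for example, the annotated start is an A with a run of C and T right after it. Such members are counted as without the run. With THP-1 on fractal topography 27 of 46 members with the run fell (median -0.37), as did 14 of 16 without it (median -0.46) and 13 of 15 with no promoter entry (median -0.55). On smooth topography the counts were 36 of 46 (median -0.65), 14 of 16 (median -0.68) and 13 of 15 (median -0.56). RPSA, which fell most, and RPLP1, whose group means varied least, both have a run, as the sequences above show. The fractal counts depend largely on fractal THP-1 replicate 3. Most members with a run that did not pass there passed as lower without that library. Among them were RPL7A, RPL13A, RPL41, RPS6, RPS14, RPS19 and RPS27A. The counts of 27 of 46 and 14 of 16 therefore do not show that members without a run fell more often. RPS29, which has no run at its annotated start, passed with that library and did not pass without it. These counts are descriptions, and the difference between the classes was not tested.

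Genes around the family moved as follows with THP-1. The fusion gene FAU did not pass on either topography (0.09 ± 0.17 on fractal and -0.42 ± 0.18 on smooth), but fell on both without the libraries that stand apart (-0.28 ± 0.08 and -0.42 ± 0.07, adjusted p = 0.00156 and 1.26e-06, edgeR). Of 6 paralogs tested, all 6 fell on fractal and 4 on smooth topography. RPL22L1, the paralog of RPL22, fell by the largest amount, to 21.9 ± 6.7 CPM in fractal THP-1, against 85.4 ± 3.3 CPM in fractal controls (-1.95 ± 0.14, adjusted p = 9.88e-11, edgeR), and to 41.9 ± 2.0 CPM in smooth THP-1, against 99.7 ± 3.2 CPM in smooth controls (SD, n = 3 each). Of 20 other genes with TOP mRNAs, which encode translation factors and similar proteins, 1 rose and 14 fell on fractal (median -0.34) and 0 rose and 16 fell on smooth topography (median -0.46), among them EEF1B2, a subunit of elongation factor 1 (-0.87 ± 0.07 on fractal and -0.99 ± 0.07 on smooth). The 1 that rose on fractal was TPT1 (0.47 ± 0.10).

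Genes that build ribosomes fell as well. Of 34 tested, 1 rose and 28 fell on fractal (median -0.74) and 1 rose and 20 fell on smooth topography (median -0.39). DDX21, a helicase of ribosomal RNA synthesis and processing, had a log2 fold change of -1.42 ± 0.08 on fractal and -1.11 ± 0.08 on smooth topography, and UBTF, a transcription factor for ribosomal RNA genes, was the 1 that rose (0.46 ± 0.10 on fractal, or 0.29 ± 0.08 without both libraries that stand apart, and 0.52 ± 0.10 on smooth). Under THP-1 0 biogenesis genes were higher and 16 lower on fractal than on smooth topography (median -0.29), where the ribosomal protein genes had a median of 0.14. Of 78 mitochondrial ribosomal protein genes, 1 rose and 52 fell on fractal (median -0.46) and 1 rose and 28 fell on smooth topography (median -0.28). MYC had 24.2 ± 6.4 CPM in fractal THP-1, against 118 ± 2.0 CPM in fractal controls (-2.27 ± 0.14, adjusted p = 3.93e-12, edgeR), and 36.5 ± 2.4 CPM in smooth THP-1, against 119 ± 1.1 CPM in smooth controls (-1.71 ± 0.13, adjusted p = 8.03e-10, edgeR). Of 18 genes of MYC and mTORC1 control, 4 rose and 8 fell on fractal and 5 rose and 6 fell on smooth topography. With cytokines 2 biogenesis genes rose and 17 fell on fractal and 1 rose and 16 fell on smooth topography, and of the other TOP genes 1 rose and 6 fell on each. Without both libraries 25 biogenesis genes and 10 other TOP genes fell with cytokines on smooth topography. With THP-1, 31 biogenesis genes then fell on fractal and 29 on smooth topography, and 23 were lower on fractal than on smooth. Of the mitochondrial ribosomal protein genes, 59 then fell with THP-1 on fractal and 42 on smooth topography.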

How the data were processed

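Per the labels' protocols, RNA was selected by poly-T, made into libraries that kept no strand and read as pairs of 150 bases. Per the submitters' processing notes, HISAT2 2.0.5, featureCounts 1.5.0-p3, CASAVA and GRCh38 were used, and the annotation is not given in the sources used here. The authors deposited raw counts per Ensembl gene for 18 libraries, with no normalization. Gene types and lengths came from GENCODE 29, which held all 58735 genes. Counts were tested with edgeR 4.0.16 (R 4.3.3): TMM scaling, filterByExpr (min.count 10, min.total.count 15), 16129 genes, 1 fit of 6 group means over 18 libraries (12 residual degrees of freedom), robust quasi-likelihood F-tests, two-sided, Benjamini-Hochberg adjustment over all genes tested in each of 9 comparisons, threshold 0.05. Levels are CPM with TMM scaling, each log2 fold change carries its SE, and precision is limited by totals of 11488204 to 21264180 counts. The tests were tried on simulated counts. Members and lists were chosen with earlier results of these data known. The rule for names takes up to 4 called members in each direction by fold, up to 2 farthest from the family median, the extremes of level and spread, 15 members with known roles, and up to 3 genes of each other list by adjusted p, and FAU and the podocyte and macrophage markers are named besides. Alternatives were DESeq2 1.42.0, other scaling, no filter, the groups of the comparison alone, the replicate number as a block and libraries left out. Figures used matplotlib 3.10.9. Some genes, 1 member among them, are counted in the totals but not reported here.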

Additional observations from a re-analysis of the deposited data

Results flagged for a closer look

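The interaction test found the treatment effect to differ between topographies in 6 cases among the members (edgeR's quasi-likelihood test, adjusted p under 0.05). That is 1 of 77 members for cytokines and 5 of 77 for THP-1, all positive, where 1.28% and 5.35% of all genes were positive, so the members' shares in this fit are near those of all genes. For cytokines this was RPL12, with an interaction of 0.42 (adjusted p = 0.0248): the cytokine effect was -0.10 ± 0.07 on fractal and -0.51 ± 0.07 on smooth topography. For THP-1 the members were RPL41 at 0.62 (adjusted p = 0.026), RPL37 at 0.57 (adjusted p = 0.00348), RPS3A at 0.54 (adjusted p = 0.0221), RPL34 at 0.48 (adjusted p = 0.00826) and RPL9 at 0.33 (adjusted p = 0.0389). The THP-1 effect on RPL41 was 0.03 ± 0.13 on fractal and -0.59 ± 0.13 on smooth topography, and that on RPL37 was -0.34 ± 0.09 and -0.91 ± 0.09. RPL41 and RPS3A had their highest fractal THP-1 level in replicate 3, and without both libraries that stand apart their interactions were 0.34 ± 0.08 and 0.30 ± 0.08 (adjusted p = 0.00175 and 0.0034). RPL37 and RPL34 were called whichever of the 12 libraries was left out, and the others lost the call in at least 1 such run. The shares changed without both libraries that stand apart. For cytokines 20 of 46 large and 15 of 31 small subunit genes then passed as positive, against 4.16% of all genes. For THP-1 15 large and 8 small subunit genes passed as positive, against 8.81% of all genes. As negative, 0 large and 1 small subunit gene passed, against 13.2%.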

How the results depend on the processing

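The direction of the member median was the same under every alternative run in all 9 comparisons, and the falls with THP-1 kept within 1.5 times of 63 and 54 calls in all. With DESeq2 the calls were 4 (fractal against smooth with cytokines), 5 (cytokines on fractal), 3 (cytokine interaction) and 14 (THP-1 interaction). With upper-quartile factors they were 2 for fractal against smooth with cytokines and 12 for the THP-1 interaction. With no filter they were 1 for fractal against smooth in control, 0 for fractal against smooth with cytokines, 5 for cytokines on fractal and 12 for the THP-1 interaction. With the groups of the comparison alone they were 26, 0 and 0 for fractal against smooth in control, with cytokines and with THP-1, 44 and 13 for cytokines on smooth and on fractal, and 13 for the cytokine interaction. Without both libraries that stand apart they were 5, 44 and 30 for fractal against smooth in the same order, 55 and 13 for cytokines on smooth and on fractal, and 35 and 24 for the cytokine and THP-1 interactions. Leaving out each library in turn gave 0 to 0, 0 to 4 and 3 to 23 calls for fractal against smooth in control, with cytokines and with THP-1, 18 to 30 and 0 to 5 for cytokines on smooth and fractal, 55 to 58 and 48 to 68 for THP-1 on smooth and fractal, and 0 to 3 and 2 to 18 for the interactions. Without FN1 and mitochondrially encoded genes the family share was 3.46, 3.04, 4.07, 3.69, 4.11 and 4.27% in fractal THP-1, smooth THP-1, fractal cytokines, smooth cytokines, fractal control and smooth control. For the share of all counts, leaving out each library gave 2.602 to 2.87, 2.45 to 2.59, 3.38 to 3.47, 2.91 to 3.15, 3.58 to 3.62 and 3.63 to 3.70% in the same groups. Of 820 values of named members under alternatives 747 kept their side of the threshold, 53 lost and 18 gained a call, and 2 reversed: RPL13A with THP-1 on fractal topography was -0.27 without fractal THP-1 replicate 3 (adjusted p = 0.000209) and -0.27 without both libraries (adjusted p = 4.35e-05), and it ran from -0.27 to 0.395 over the runs that left out a library. The cause of these changes was not tested. Most counts of members under alternatives, also with the replicate number as a block, have no share of all genes from the same run beside them. That share changed between runs. For fractal against smooth in control, 1.77% of all genes passed in either direction in the main fit. In the fit of the control libraries alone 9.41% passed as lower. Without such a share, a count does not show whether members differed from other genes.

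With the replicate number as a block the member calls were 0, 1 and 15 for fractal against smooth in control, with cytokines and with THP-1, 29 and 3 for cytokines on smooth and fractal, 63 and 54 for THP-1 on smooth and fractal, and 1 and 7 for the interactions. Over all genes tested, same-numbered libraries did not deviate together from their group means (correlations from -0.049 to 0.049). The labels do not say whether such libraries share a culture or a day, and these correlations cannot exclude it.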
